A study of Mus musculus with 6 samples.

Results

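The genes described here are 10 components of the Hippo pathway: the angiomotins Amot, Amotl1 and Amotl2, the kinases Lats1 and Lats2, the coactivators Yap1 and Wwtr1, and the transcription factors Tead1, Tead2 and Tead4. They were found by gene symbol in all 6 expression tables and are 10 of the 17710 genes listed in any table. The set was chosen by the XEN and ES values in these same tables, so the difference between the cell types is given for these genes as a description, without a test. RNA was sequenced from 3 libraries of mouse embryonic stem (ES) cells of strain 129/Ola, kept on gelatin in N2B27-2iLIF medium, and from 3 libraries of extraembryonic endoderm (XEN) cells of strain ICR, kept in RPMI1640 with 15% FBS and, in the labels' words, Glut and BME. The libraries of each cell type are named A, B and C. The labels name no altered gene, no further treatment and no clone, passage or culture. Nothing says that the libraries of a cell type are separate cultures, so p-values cover only library-to-library spread, part of which can be technical. The cell types also differ in strain and medium, and these cannot be told apart. In bulk RNA, fewer cells with a transcript and less of it per cell cannot be told apart either.

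In the Hippo pathway, upstream kinases switch on LATS1 and LATS2, which phosphorylate the coactivators YAP and TAZ (the product of Wwtr1) so that 14-3-3 proteins hold them in the cytoplasm and they are degraded. Angiomotins are scaffold proteins of junctions and actin that bind YAP and also promote LATS activity. YAP and TAZ that reach the nucleus bind TEAD factors, which carry the DNA-binding domain, and switch on target genes. In the early mouse embryo this pathway is known for separating outer trophectoderm, where YAP and TEAD4 are active, from the inner cells that give rise to the epiblast and the primitive endoderm, the lineages that ES and XEN cells represent.

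The promoters of the members are shown for 2 reasons: Amotl2 and Lats2 are known as feedback targets of YAP and TEAD, and XEN cells express GATA factors. RefSeq promoter windows of 300 bases, from 250 before to 50 after the annotated start in build GRCm38.p6, were at hand for 8 of the 10 members, with 10 windows in all. Tead1 and Tead4 had no window and were not searched. Each was searched on both strands for the core word bound by TEAD factors, GGAATG. The same search was made for a word bound by GATA factors, AGATAA. The TEAD word was in a window of 4 of the 8 members, Amotl2, Lats2, Wwtr1 and Yap1, and in windows of 16.6% of 27025 genes. A further Lats2 window, at chr14:57734369-57734668, did not hold the TEAD word. The GATA word was in no member's window and in windows of 12.7% of genes. Only this spelling was searched, and the near form agatag is in the Wwtr1 stretch below and also in the Amotl1 window. The absence of the word therefore does not show that the windows lack GATA sites. A match shows only that these letters are present. The 30-base stretches around the TEAD words of Lats2, Wwtr1 and Yap1 follow, 5′ to 3′ on the strand of the gene, with the word in capitals. They lie at chr14:57746102-57746131, chr3:57576029-57576058 and chr9:8004720-8004749, all on the minus strand, and the word of Lats2 starts 5 bases into the transcript.
Lats2: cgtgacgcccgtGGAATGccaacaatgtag
Wwtr1: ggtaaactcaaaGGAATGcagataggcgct
Yap1: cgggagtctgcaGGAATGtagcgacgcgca

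For Amotl2, the most abundant angiomotin, and Amot, the member with the largest change, the 250 bases before the start are printed, at chr9:102717554-102717803 on the plus strand and chrX:145487640-145487889 on the minus strand. The capitals mark the TEAD word in Amotl2, and the stretch of Amot holds neither word.
Amotl2: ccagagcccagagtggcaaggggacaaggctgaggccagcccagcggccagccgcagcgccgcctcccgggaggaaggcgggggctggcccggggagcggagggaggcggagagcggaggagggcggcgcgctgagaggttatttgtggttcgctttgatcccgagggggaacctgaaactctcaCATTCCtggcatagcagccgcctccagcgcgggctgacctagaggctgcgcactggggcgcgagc
Amot: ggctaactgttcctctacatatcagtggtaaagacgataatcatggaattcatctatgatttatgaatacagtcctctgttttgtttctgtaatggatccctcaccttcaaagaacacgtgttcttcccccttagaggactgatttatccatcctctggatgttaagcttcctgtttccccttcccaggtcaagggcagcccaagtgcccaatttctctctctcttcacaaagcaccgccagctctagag

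The libraries held 20675311 to 22375875 expected counts, the read numbers that RSEM estimates per gene, and all 10 members were listed in all 6. ES markers (Pou5f1, Nanog, Sox2 and Esrrb) summed to 1804 to 1839 FPKM in ES and 0.490 to 0.710 FPKM in XEN libraries, and 6 XEN markers to 1.34 to 1.48 and 1217 to 1284 FPKM. Because YAP and TEAD4 act in trophoblast, its markers were read too: the 9 genes summed to 32.5 to 34.5 FPKM in ES and 3.02 to 3.55 FPKM in XEN libraries, and 2 of them, Hand1 and Prl3d1, were listed in no table. Of the 9, 2 were called higher in XEN cells: Cdx2, at 0.0767 and 0.393 FPKM in ES and XEN cells, and Gata3, at 0.03 and 0.313 FPKM. Another 4 were called lower: Tfap2c, at 22.6 and 0.0233 FPKM, Eomes, at 6.42 and 1.94 FPKM, and Krt7 and Ascl2. Krt7 read 3.34 and 0.617 FPKM and Ascl2 1.15 and 0.01 FPKM, and Tfap2c held most of the ES sum. Of 8 fibroblast genes, which would mark feeder cells, the sum was 1.72 to 2.01 FPKM in ES and 0.17 to 0.26 FPKM in XEN libraries. Nearly all of the ES sum was Thy1, at 1.64, 1.85 and 1.92 FPKM in ES libraries A, B and C. Col1a1, Col1a2, Col3a1, Dcn and Postn each read at most 0.04 FPKM in any ES library, and Lum and Twist2 were listed in no table. The part of such cells in the results was not tested.

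All 10 members had a higher level in each XEN library than in any ES library, whereas 42.4% of the 13581 genes tested had that order. Since the members were chosen on this contrast, nothing is read from their count. Their log2 fold changes, XEN over ES on log2 CPM (counts scaled to library size with TMM factors, and a prior count of 2), ran from 0.59 to 6.63 with a median of 1.23, and the median of all genes tested was -0.07. Amot and Lats2, low in every ES library, had values above 5, and the other 8 had values of 0.59 to 2.44. Every member passed the filter on low counts.

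**Figure D1:**
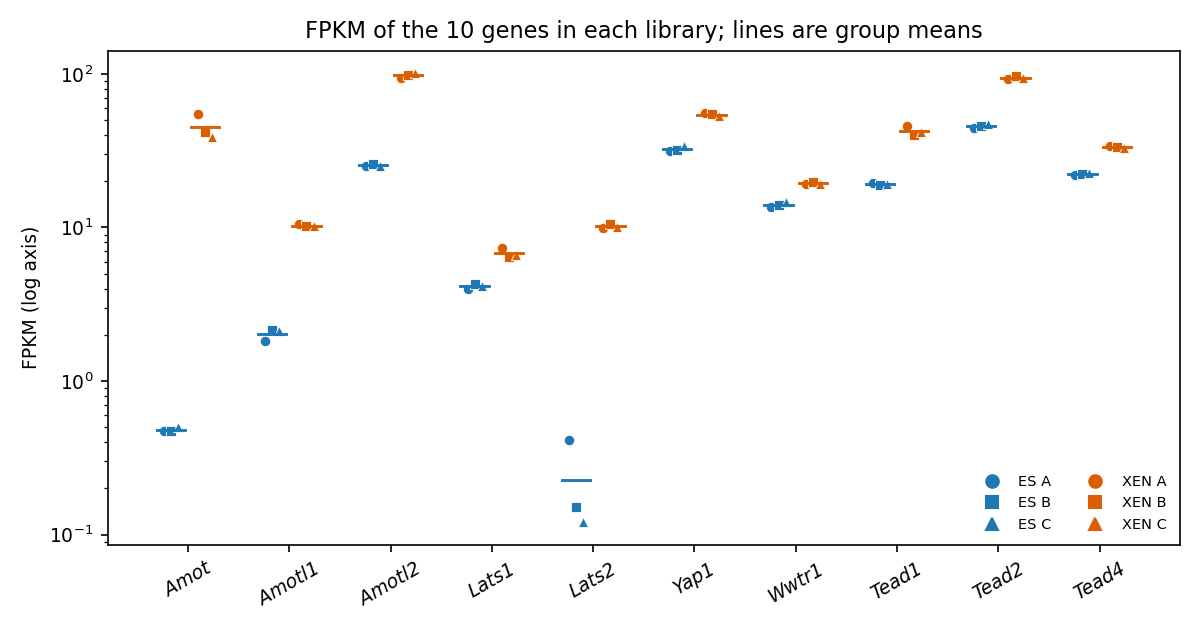
FPKM of the 10 genes on a log axis, with a point for each library (ES in blue, XEN in orange; circle A, square B, triangle C) and a line at each group mean. Amot and Lats2 lie under 1 FPKM in every ES library, and for each gene the 3 XEN points lie above the 3 ES points.

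The angiomotins changed most as a family. Amot (gene 27494), the founding member of the family, read 0.470, 0.470 and 0.500 FPKM in ES libraries A, B and C and 55.04, 41.96 and 38.79 FPKM in XEN libraries A, B and C. FPKM divides by transcript length and library size, so that levels of different genes can be set side by side. The ES values lay in the lower range of listed genes, at the 28.6th percentile, and the XEN values at the 87.7th. In CPM the means were 3.16 ± 0.122 (SD, n = 3) and 326 ± 62.9, a log2 fold change of 6.63 ± 0.16 (SE). Library A was the highest of the XEN libraries, and all 3 were far above the ES libraries.

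Amotl2 (gene 56332), the angiomotin known as a YAP-TEAD target, read 25.2, 25.9 and 25.2 FPKM in ES and 93.9, 98.4 and 101 FPKM in XEN libraries. Its log2 fold change was 2.07 ± 0.03 (SE), and the libraries of each cell type lay close together. Amotl1 (gene 75723), the third angiomotin and also a junctional scaffold, read 1.83, 2.15 and 2.12 FPKM in ES and 10.5, 10.2 and 10.2 FPKM in XEN libraries. Its log2 fold change was 2.44 ± 0.08 (SE), so that it changed by a larger factor than Amotl2 from a lower level.

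Summed over the 3 genes, angiomotin transcripts went from 27.9 ± 0.511 FPKM (SD, n = 3) in ES to 153 ± 5.24 FPKM in XEN cells, 5.49 times as much. The make-up changed as well. In ES cells Amotl2 accounted for 91.0% ± 0.556 of the sum and Amot for 1.72% ± 0.0746. In XEN cells Amotl2 accounted for 63.9% ± 4.43 and Amot for 29.4% ± 4.54. The share of Amotl1 was 7.28% ± 0.537 and 6.71% ± 0.125, and the libraries of both cell types overlapped. The ratio of Amot to Amotl2 in FPKM went from 0.0189 ± 0.000866 to 0.465 ± 0.107.

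The spread of Amot among XEN libraries was wide, with a coefficient of variation of 19.3%. In XEN libraries the median over the 8814 genes with at least 5 CPM in both cell types was 4.29%, and 90% of them lay under 9.84%. These genes were not matched to the level of Amot, which is outside the set by its ES level. XEN library A read long transcripts higher than the other 2 XEN libraries: among 647 genes of 7 kb or more its median deviation was 0.16 on the log2 scale, with 90.4% of genes above 0, against -0.06 among genes under 2 kb. Amot, with a transcript of 6974 bases, deviated by 0.45 in library A, and Tead1 and Lats1, which are over 7 kb, by 0.17 each. Amotl1, also over 7 kb, deviated by 0.05. The deviation of Amot was larger than the 0.06 median of the 2119 genes of 4 to 7 kb. The part of transcript length in the spread of Amot was not tested. Without library A its log2 fold change was 6.48.

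**Figure D2:**
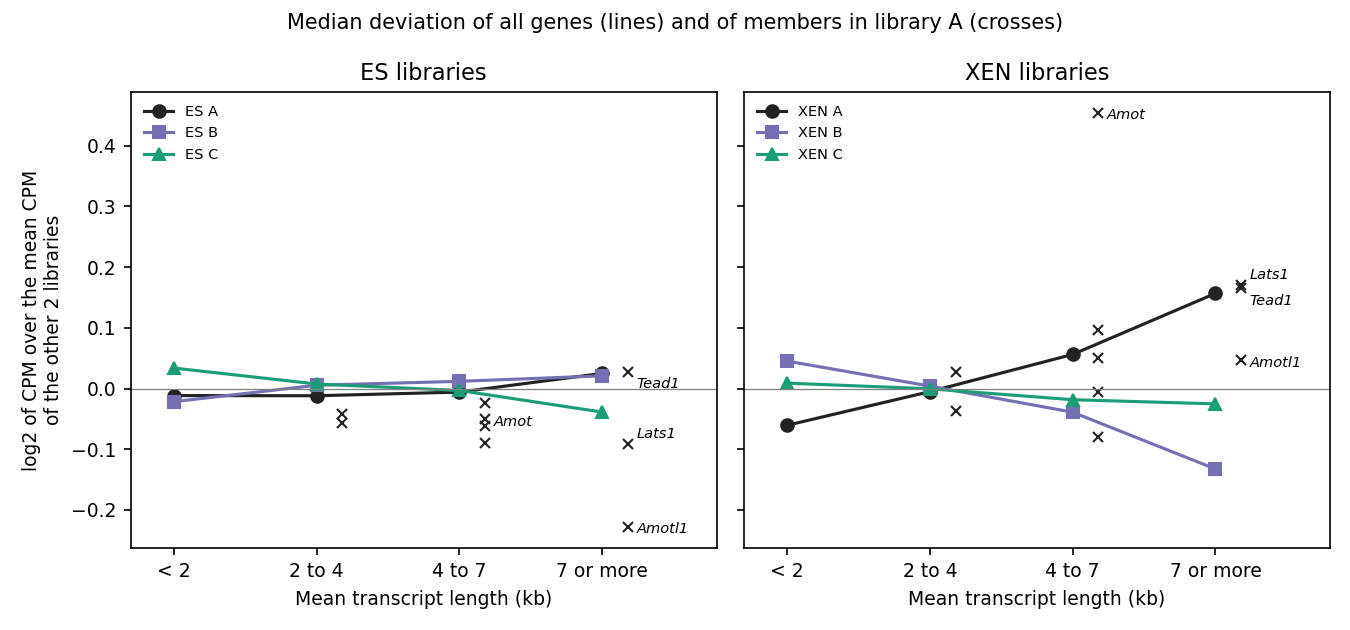
Median log2 of a library's CPM over the mean of the other 2 libraries of its cell type, in 4 classes of mean transcript length (lines), with the members in library A as crosses. Lats2 in ES library A, at 0.83, is left off the axis; in XEN library A the line climbs with length to 0.16, and Amot stands at 0.45.

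The LATS kinases changed unequally. Lats1 (gene 16798), a kinase that phosphorylates YAP and TAZ, read 3.98, 4.27 and 4.17 FPKM in ES and 7.30, 6.41 and 6.64 FPKM in XEN libraries, a log2 fold change of 0.84 ± 0.07 (SE). Lats2 (gene 50523), its paralog and a YAP-TEAD target, read 0.410, 0.150 and 0.120 FPKM in ES and 9.95, 10.6 and 10.1 FPKM in XEN libraries. These ES values rest on 26, 17 and 14 counts, against 1044, 990 and 919 in XEN libraries. In CPM Lats2 averaged 0.849 ± 0.31 in ES and 46.9 ± 1.85 in XEN cells, and the log2 fold change was 5.70 ± 0.27 (SE). The spread in ES cells was mostly that of library A, which lay above the other 2.

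The make-up of the kinase pair differed between the cell types. In ES cells Lats1 made up 94.8% ± 3.62 of the summed FPKM of both kinases and Lats2 5.18% ± 3.62, or 3.10% for Lats2 without ES library A. In XEN cells Lats2 made up 60.05% ± 2.29. By CPM, which ignores length, its share in XEN cells was 48.2%, so that which kinase was more abundant there depended on the scale. The sum of both went from 4.37 ± 0.0681 to 17.0 ± 0.28 FPKM, 3.89 times as much.

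Lats2 also differed from the other members in the length that RSEM assigned, the mean over its transcripts weighted by their estimated use. It has 3 transcript models, 1 of them added by the authors. The length was 3137 bases in ES library A and 5213 in ES libraries B and C, and 4796, 4294 and 4433 bases in XEN libraries A, B and C. The range came to 46.0% of the mean length, whereas it was at most 2.25% for the other 9 members. The ES lengths rest on 26, 17 and 14 counts, so they are imprecise, and transcript use was not compared between the cell types. FPKM of Lats2 is therefore not on a fixed length, and a shorter length gives more FPKM per count. In ES library A 26 counts gave 0.410 FPKM, and in ES library B 17 counts gave 0.150 FPKM. In the GENCODE annotation Lats2 also overlaps Gm49361, a protein-coding gene on the same strand that was in no table. The part of Gm49361 in the counts of Lats2 was not tested.

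**Figure D3:**
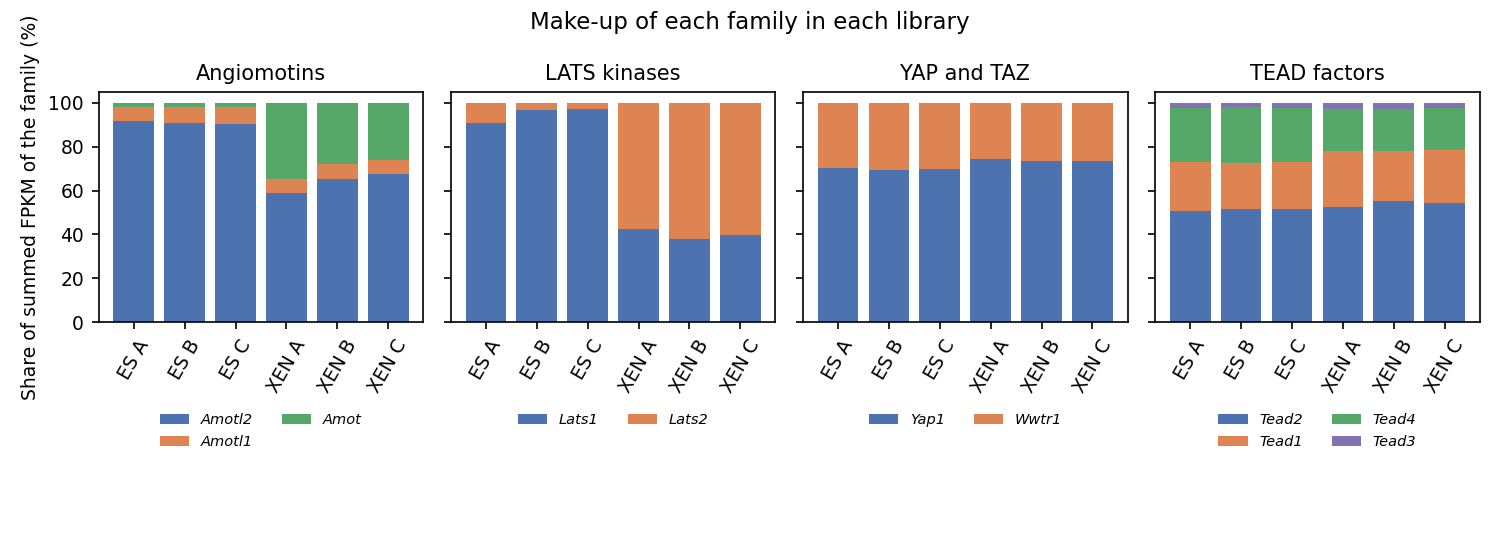
Share of each gene in the summed FPKM of its family in each of the 6 libraries, as stacked bars that add to 100%. The share of Amot averages 29.4% and that of Lats2 60.05% in XEN libraries, against 1.72% and 5.18% in ES libraries, while the shares within YAP and TAZ and within TEAD differ by a few percentage points.

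The coactivators, summed over both genes, changed by the smallest factor of the 4 families, from 46.6 ± 1.64 to 73.8 ± 1.36 FPKM, 1.58 times as much. Yap1 (gene 22601) read 31.7, 32.1 and 33.8 FPKM in ES and 55.5, 54.6 and 53.1 FPKM in XEN libraries, a log2 fold change of 0.87 ± 0.04 (SE). Wwtr1 (gene 97064), which encodes TAZ, read 13.5, 14.1 and 14.6 FPKM in ES and 19.3, 19.8 and 19.1 FPKM in XEN libraries, a log2 fold change of 0.59 ± 0.04 (SE). It was the smallest of the 10, and the groups still did not overlap. Both were well expressed in either cell type: Yap1 stood at the 83.8th and 89.6th percentiles of listed genes in ES and XEN cells and Wwtr1 at the 69.0th and 74.0th. Wwtr1 was 0.432 ± 0.00536 times Yap1 in ES cells and 0.356 ± 0.00794 times in XEN cells, and this ratio was lower in each XEN library than in any ES library.

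The TEAD genes encode the DNA-binding partners of YAP and TAZ. Tead2 (gene 21677), the most abundant of them per length in both cell types, read 44.7, 45.7 and 47.0 FPKM in ES and 92.6, 97.7 and 93.6 FPKM in XEN libraries, a log2 fold change of 1.18 ± 0.03 (SE). On the opposite strand it overlaps Cd37 in the GENCODE annotation, which averaged 1.15 FPKM in ES cells and was in no XEN table, and the strand used in counting is not given in the sources used here. Tead1 (gene 21676) read 19.5, 18.9 and 19.2 FPKM in ES and 45.8, 40.0 and 42.0 FPKM in XEN libraries, a log2 fold change of 1.27 ± 0.06 (SE). Tead4 (gene 21679), the TEAD factor required for trophectoderm, read 21.9, 22.3 and 22.7 FPKM in ES and 33.8, 33.5 and 32.9 FPKM in XEN libraries, a log2 fold change of 0.72 ± 0.02 (SE). In FPKM, Tead4 was above Tead1 in each ES library and below it in each XEN library. By CPM, which ignores length, Tead1 was above Tead4 in both cell types, at 175 against 62.4 in ES and 423 against 103 in XEN cells.

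Tead3, the fourth paralog, is not among the 10 and was the scarcest, at 1.89 ± 0.0493 FPKM in ES and 4.65 ± 0.374 FPKM in XEN cells (adjusted p = 5.15e-11 in the edgeR quasi-likelihood test). With it, the TEAD sum went from 89.2 ± 1.43 to 175 ± 2.26 FPKM, 1.97 times as much. Tead2 held 51.3% ± 0.546 of the sum in ES and 54.0% ± 1.58 in XEN cells, Tead1 21.6% ± 0.552 and 24.3% ± 1.58, and Tead4 25.003% ± 0.124 and 19.1% ± 0.0385. The ratio of Tead4 to Tead2 was lower in each XEN library than in any ES library, 0.487 ± 0.00478 against 0.353 ± 0.0111, and the ratio of Tead1 to Tead2 overlapped between the cell types.

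Set against the coactivators, the angiomotins, the LATS kinases and the TEAD factors were all more abundant in XEN cells. The summed FPKM of the angiomotins was 0.600 ± 0.0223 times that of Yap1 and Wwtr1 in ES cells and 2.08 ± 0.0544 times in XEN cells. For the LATS kinases the ratio went from 0.0938 ± 0.00454 to 0.230 ± 0.00155, and for the TEAD factors from 1.92 ± 0.0363 to 2.38 ± 0.0136. Each of these ratios was higher in every XEN library than in any ES library. They concern transcripts, and phosphorylation and protein levels were not measured.

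Other genes of the pathway moved in both directions. Since the members were chosen on this contrast, these genes are set against all genes and not against the members. Of 107 tested genes in 6 lists of other Hippo components, 61 rose and 35 fell in XEN cells in the edgeR quasi-likelihood test with Benjamini-Hochberg adjustment over all genes. Among all 13581 genes tested, 42.0% were called higher in XEN cells and 46.7% lower. The lists thus held a larger share called higher, and a smaller share called lower, than all genes. They were chosen with earlier results of these data known, so this difference is a description. The median log2 fold change of the 107 genes was 0.31. Upper-quartile scaling lowered the median of all genes from -0.07 to -0.21 and gave 55 higher and 42 lower of the 107. Calls over all genes shifted in the same direction, from 5707 higher and 6337 lower to 5093 and 7059.

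Upstream of LATS, the core kinase cassette and its activators moved both ways, with 8 higher, 10 lower and 3 not called of 21, or 38.1% higher and 47.6% lower, and a median log2 fold change of -0.06. The adaptors that join the kinases to LATS were among those that rose: Sav1, the scaffold of the MST kinases, went from 32.9 ± 0.854 to 73.2 ± 2.05 CPM (log2 fold change 1.15, adjusted p = 1.04e-15 in edgeR). Mob1a and Mob1b, the LATS cofactors, rose by 0.92 and 0.87 on the log2 scale, and Wwc2, a relative of KIBRA, by 0.99. KIBRA itself, Wwc1, fell by 2.83 from 68.4 ± 1.52 to 9.56 ± 0.895 CPM. Stk38, a kinase related to LATS and the gene of the list with the highest FPKM in ES cells, fell from 104 to 21.4 FPKM, and the MAP4K-family kinases Tnik and Map4k1 fell by 2.32 and 2.09. Of the genes that encode the upstream MST kinases, Stk3 rose by a log2 fold change of 0.77 and Stk4 did not pass (0.03 ± 0.04, adjusted p = 0.473 in edgeR), though upper-quartile scaling called it lower (adjusted p = 0.0167). These were chosen after their values were seen, as was Nf2, the tumour suppressor merlin, which fell by 1.05. Mink1, also chosen in this way, was called higher (adjusted p = 0.0231 in edgeR). Its call was lost with upper-quartile scaling (adjusted p = 0.920 in edgeR).

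The STRIPAK complex, a phosphatase assembly that inhibits the MST kinases, had 12 genes higher, 3 lower and 1 not called of 16, or 75.0% higher, with a median log2 fold change of 0.35. Stk24 rose from 90.3 ± 1.93 to 186 ± 5.95 CPM and Slmap, the adaptor that recruits MST kinases to the complex, from 102 ± 2.31 to 209.9 ± 8.63 CPM. Fgfr1op2 and Strn3, a regulatory subunit, rose by 0.90 and 0.69, whereas Sike1 fell by 1.03 and Pdcd10 by 0.20. Ppp2ca, the catalytic subunit and the most abundant gene of the list, rose by 0.33. Most of these changes were under 2-fold in size.

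Among 26 tested genes of polarity, junctions and atypical cadherins, 16 rose, 9 fell and 1 did not pass, or 61.5% higher and 34.6% lower. The median log2 fold change was 0.55. Scrib, named after its values were seen, was among the 16 (adjusted p = 0.0491 in edgeR). Its call was lost under every other scaling, such as RLE (adjusted p = 0.0761 in edgeR) and upper quartile (adjusted p = 0.190 in edgeR). It was also lost with DESeq2 (adjusted p = 0.165) and with limma. Ptpn14, a phosphatase that binds YAP and is also in the target list, rose from 11.3 ± 0.361 to 254 ± 24.3 CPM (log2 fold change 4.48, adjusted p = 5.12e-16 in edgeR). Patj, a Crumbs complex scaffold, rose from 5.67 ± 0.543 to 73.9 ± 6.74 CPM, Pard6b, a Par complex subunit, by 3.40, and Ajuba, a LIM protein that binds LATS, by 2.58. On the other side, E-cadherin, Cdh1, fell from 627 ± 18.9 to 30.6 ± 3.39 CPM, Crb3 from 10.99 ± 0.408 to 3.63 ± 0.213 CPM, the polarity kinase gene Prkci by 1.24 and Magi1 by 0.93. Ctnna1, alpha-catenin, which had the highest FPKM of the list in the mean over all 6 libraries, fell by 0.10 (adjusted p = 0.0163 in edgeR), and this call was lost without ES library B (adjusted p = 0.0849) or XEN library C (adjusted p = 0.0546).

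Genes of 14-3-3 retention and of angiomotin and YAP turnover gave 10 higher, 6 lower and 4 not called of 20, and 9 and 9 with upper-quartile scaling. Tnks2 and Tnks, the tankyrases that mark angiomotins for degradation, both rose: Tnks2 read 366 ± 8.08 CPM in ES and 923 ± 47.6 CPM in XEN cells, and Tnks 51.4 ± 2.08 and 128 ± 18.3 CPM. Usp9x, a deubiquitinase of angiomotins, fell from 504 ± 22.4 to 247 ± 33.0 CPM, and Nedd4, a ubiquitin ligase gene, fell by 0.89. Ppp1ca, a phosphatase catalytic subunit, and Csnk1d, a casein kinase that primes YAP for degradation, rose by 0.82 and 0.64. The 7 genes of 14-3-3 proteins moved both ways, with 3 called higher and 4 lower. Ywhae, the most abundant, fell by 0.18 and Ywhag by 0.94. Ywhaz and Ywhab, named after their values were seen, rose by 0.48 and 0.59, and the call of Ywhaq as higher was lost with upper-quartile scaling (adjusted p = 0.809 in edgeR). For Sfn, 14-3-3 sigma, the ES libraries summed to 1227 counts and the XEN libraries to 3, a ratio of ES to XEN of 380.1 with an exact 95% interval of 129.8 to 1846 that covers counting error only.

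Of the other TEAD gene and the TEAD cofactors, 3 rose, 2 fell and 1 did not pass of 6. Besides Tead3, Vgll4, a TEAD-binding competitor of YAP, rose from 7.68 ± 1.16 to 13.4 ± 1.25 CPM and the coactivator gene Ncoa3 by 0.50.

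**Figure D4:**
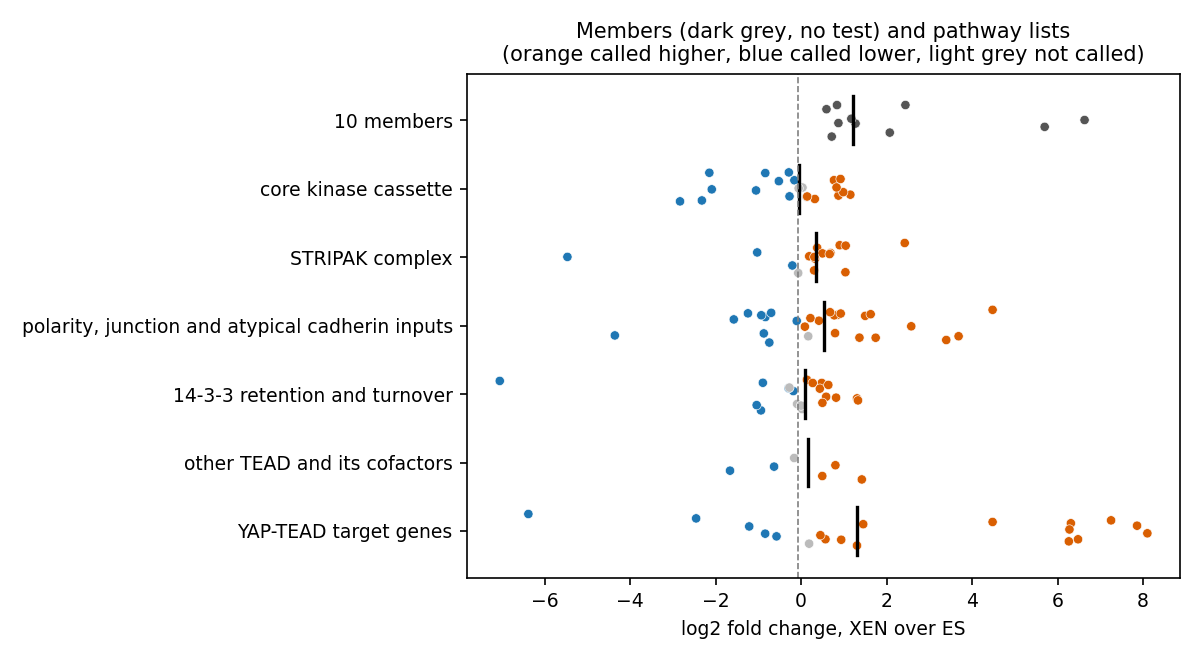
Log2 fold change, XEN over ES on log2 CPM with a prior count of 2, of the 10 members and of each tested gene in 6 pathway lists, with a black bar at each median and a dashed line at -0.07, the median of all genes tested. All members, which were chosen on this contrast, lie to the right of 0. The lists, which leave the members out, spread to both sides, with the target genes reaching furthest to the right.

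The target genes of YAP and TEAD are commonly used as a readout of the nuclear end of the pathway. Of 19 tested genes, leaving out the members Amotl2 and Lats2, 13 rose, 5 fell and 1 did not pass, or 68.4% higher and 26.3% lower, and the median log2 fold change was 1.31. Ctgf, a secreted matricellular protein and a standard readout of YAP, went from 9.03 ± 0.379 to 723 ± 15.6 CPM (log2 fold change 6.31 ± 0.04, adjusted p = 4.35e-27 in edgeR). Cyr61, its relative, went from 1.17 ± 0.459 to 278 ± 19.6 CPM. Crim1, a transmembrane protein that binds BMPs, went from 2.03 ± 0.099 to 322 ± 9.76 CPM. Ankrd1, a nuclear ankyrin repeat protein, was listed in no ES table. It averaged 24.3 ± 2.29 CPM in XEN cells, at least 549-fold higher than in ES cells, with a floor of 3 counts set for the ES group.

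Not every target moved that way, and Tgfb2 and Fjx1 are named here after their values were seen. Asap1, an ARF regulator, fell from 49.9 ± 1.2 to 21.5 ± 0.208 CPM and Myof, a membrane repair protein gene, from 218 ± 12.3 to 122 ± 8.62 CPM. Tgfb2 was called higher, but its groups overlapped and the call was lost without XEN library A (adjusted p = 0.242), without ES library A (adjusted p = 0.105) and without ES library B (adjusted p = 0.147). The call was also lost with upper-quartile scaling (adjusted p = 0.135 in edgeR), with DESeq2 (adjusted p = 0.101) and with limma. Fjx1 was called lower and lost its call without ES library B (adjusted p = 0.0875) or XEN library B (adjusted p = 0.0671). The part of YAP in the levels of these genes was not tested.

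**Figure D5:**
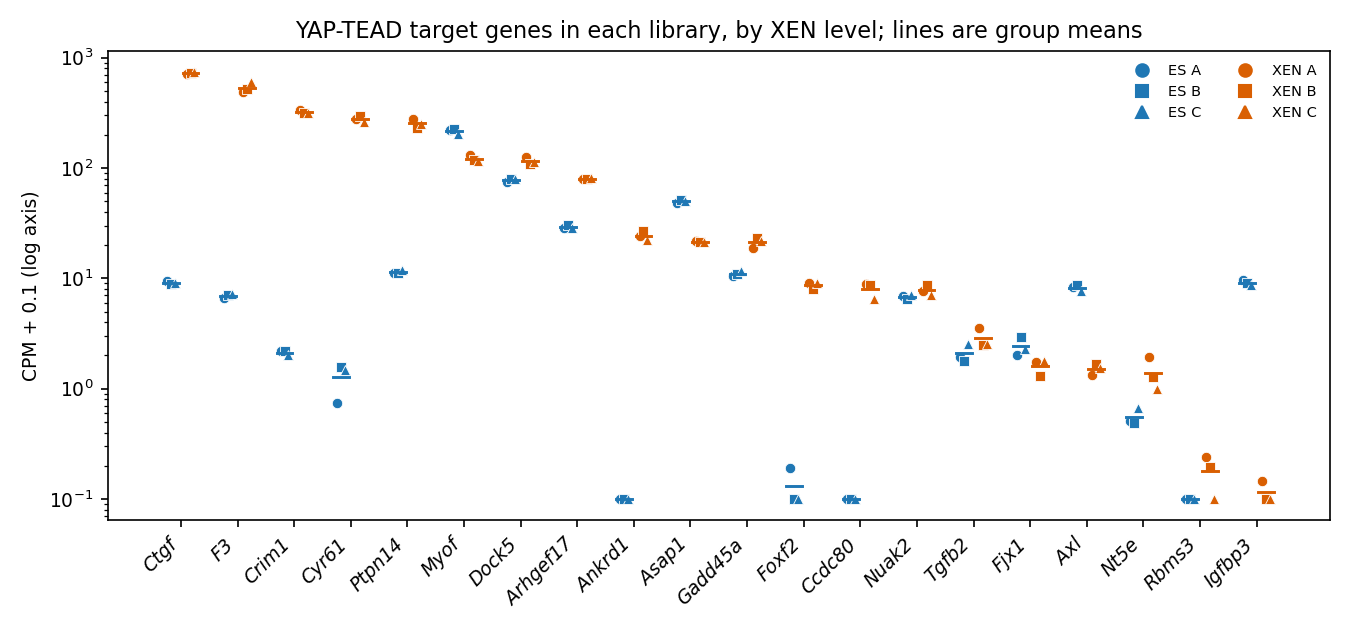
CPM plus 0.1 on a log axis for the 20 listed YAP-TEAD target genes, ordered by XEN level, with a point for each library and a line at each group mean. Ctgf, F3, Crim1, Cyr61 and Ptpn14 are the highest in XEN cells, each far above its ES level, while Myof, Asap1, Axl, Fjx1 and Igfbp3 are lower in XEN cells.

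Genes with the most similar levels to Amot were looked for by Euclidean distance in log2(FPKM + 1) over the 6 libraries. The nearest were Slco2a1, a prostaglandin transporter gene, at 0.393 ± 0.0493 FPKM in ES and 45.8 ± 1.84 FPKM in XEN cells (distance 0.34), Gsn, gelsolin (distance 0.50), and the target gene Crim1 (distance 0.54). Nearest to Wwtr1, the member with the smallest change, were Agpat5, Actr10 and Dpp9, at distances of 0.09, 0.12 and 0.12. With 2 cell types, these distances compare little more than 2 levels.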

How the data were processed

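RNA of 3 ES and 3 XEN libraries was sequenced on the BGISEQ-500 platform, per the labels' protocols. Per the submitters' processing notes, Bowtie2, RSEM, DESeq2 and mm9 were used, with no versions or roles given. The deposited tables give, per gene, expected counts and FPKM values computed by the authors, and a length in bases weighted over transcripts. Genes under 0.01 FPKM are not listed and were taken as 0.

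Expected counts were rounded to whole numbers, filtered by filterByExpr (13581 genes kept) and scaled by TMM. XEN was compared with ES by the edgeR 4.0.16 quasi-likelihood F test (R 4.3.3) with group as the only term and a threshold of 0.05. Levels carry SDs, and each log2 fold change carries a standard error (SE) that combines the variances of both groups. The floor was 3 counts over a group. The pipeline was tested on simulated data.

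The members and lists were chosen with earlier results of these data known. From each list up to 4 called genes in each direction with at least 5 CPM, and the gene with the highest mean FPKM, were named, except 1 that is not reported here. Protein features were not analysed here. Promoters came from RefSeq by gene identifier. Alternatives were other scalings and filters, a replicate block, leaving out each library, DESeq2 1.42.0 and limma 3.58.1 on log2 FPKM.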

Additional observations from a re-analysis of the deposited data

How the results depend on the processing

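All 10 members had a positive log2 fold change under each scaling (RLE, upper quartile, none), without each library in turn and from FPKM with pseudocounts of 0.1 and 1. The sizes for Amot and Lats2 depended most on the pseudocount, with ranges of 4.97 to 6.73 and 3.19 to 5.95, since both were near 0 in ES cells. Shares within a family depended on dividing by length: by CPM, Tead1 made up 53.0% and 57.4% of the TEAD sum in ES and XEN cells and Tead2 26.7% and 27.1%, and Amotl1 made up 14.6% and 11.4% of the angiomotin sum. Counts of calls, over all genes and in each list, stayed within 1.5 times under all 15 alternatives, and of the 107 list genes 18 changed their call under at least 1 of them, none to the opposite direction. Of the 43 genes that the rule named, Ctnna1 alone lost its call. The labels do not say that a letter marks a shared culture, and deviations of same-letter libraries were correlated by only 0.0312, 0.00682 and 0.0186, although each library correlated best with its own letter. With the letter as a replicate block, 5682 genes were called higher and 6318 lower, against 5707 and 6337 without it, and in the lists 61 and 36. Taok1 (adjusted p = 0.0377) and Ep300 (adjusted p = 0.00908) gained a call under the block, and Scrib (adjusted p = 0.0708) lost its call. These changes were not particular to the block. Upper-quartile scaling in edgeR made the same change for Ep300 (adjusted p = 0.0117) and Scrib (adjusted p = 0.190). Leaving out XEN library B did so for Taok1 (adjusted p = 0.0205 in edgeR). Depth limits Lats2 in ES cells, where 3 counts in a library came to 0.136 to 0.145 CPM before scaling.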

Other observations

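Further YAP-TEAD target genes, outside the naming rule and chosen here after their values were seen, moved in both directions. F3, tissue factor, went from 6.88 ± 0.336 to 537 ± 54.8 CPM (SD, n = 3). For Foxf2, a forkhead factor gene, counts summed to 2 in ES and 540 in XEN libraries, a ratio of 290.5 with an exact 95% interval of 80.0 to 2405. This interval and the next cover counting error only. Ccdc80, a matrix protein gene, had 0 counts in ES libraries and was at least 179-fold higher in XEN cells. In the other direction, counts of Igfbp3 summed to 609 in ES and 1 in XEN libraries, a ratio of ES to XEN of 566 with an interval of 101 to 22393, and Axl, a receptor tyrosine kinase gene, fell from 8.16 ± 0.492 to 1.42 ± 0.183 CPM.

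Stk26, an MST-related kinase gene of the STRIPAK list, was in no XEN table and averaged 4.15 ± 0.537 CPM in ES cells (at least 87.3-fold lower in XEN, with the floor of 3 counts), while its paralogs Stk24 and Stk25 rose. Vgll3, a TEAD cofactor gene, fell from 5.08 ± 0.395 to 1.55 ± 0.25 CPM. Pals1 (listed as Mpp5), a Crumbs complex scaffold gene like Patj, rose from 28.7 ± 0.565 to 81.4 ± 5.55 CPM, and the tight junction gene Tjp1 rose from 95.3 ± 1.28 to 295 ± 18.3 CPM.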
